A study of Mus musculus with 36 samples.

Results

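PKP4-KO keratinocytes in which plakophilin 4 (PKP4) had been put back as a GFP-tagged protein (Rescue cells) were compared with the PKP4-KO cells themselves after 24 h in low calcium medium (LCM). The comparison rests on 6 of the 36 RNA sequencing libraries of the study, 3 of Rescue and 3 of PKP4-KO cells, taken by their labelled genotype, medium and time. The 3 wild-type (WT) libraries of the same medium and time are given beside them as a reference level. WT and PKP4-KO cells were primary keratinocytes isolated from newborn mouse skin, WT cells from Pkp4+/+ and PKP4-KO cells from Pkp4-/- pups. These pups came from mice crossed back to C57BL/6 J. The Pkp4-/- allele came from a tm1b allele that had lost the critical exon 9, after which the lacZ reporter was bred out. Rescue cells were PKP4-KO cells transduced with a lentivirus for human PKP4 carrying EGFP at its N-terminus and then selected with puromycin into a stable line. The study describes this line as one that overexpresses the tagged protein. PKP4-KO cells with an empty or GFP-only vector were not analysed here, so the return of PKP4, its level, the transduction and the selection cannot be told apart. The labels call the 3 libraries of a group biological replicates, and for Rescue these are replicates of 1 selected line. Whether the libraries of a group came from separate animals is not stated in the labels. The tests therefore measure the spread between libraries of a group, estimated over all 12 groups and not from these 6 libraries alone.

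PKP4, also known as p0071, belongs to the p120-catenin family of armadillo repeat proteins. These proteins bind the cytoplasmic part of cadherins, and PKP4 has been placed at adherens junctions, at desmosomes and, during division, at the midbody, where it acts with regulators of small GTPases. Cadherins need extracellular calcium to bind their partners on the next cell. Keratinocytes kept in LCM therefore hold few mature junctions and keep dividing, while high calcium medium (HCM) starts junction assembly and differentiation. The comparison at low calcium asks how the transcriptome of the Rescue line differs from that of PKP4-KO cells before calcium is raised.

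The 6 libraries held between 14799229 and 20257911 counts on genes, and the 3 WT libraries between 13602728 and 15678952. Levels are given as CPM, counts relative to the size of the library, scaled by the trimmed mean of M-values (TMM), and 3 counts in a library correspond to 0.124 to 0.211 CPM in these 6. Intervals and floors cover counting error only. Rescue replicate 3 and PKP4-KO replicate 1 stood apart from the other libraries of their groups. Of the variance between the 6 libraries, 57.8% lay along a component that separated Rescue from PKP4-KO and 30.3% along a component that separated these 2 libraries from the other four. Both had higher levels of short genes and lower levels of long genes. Among the 1753 tested genes of up to 1 kb, the median log2 difference from the other libraries of the group was 0.67 for Rescue replicate 3 and 0.74 for PKP4-KO replicate 1. Among the 2290 genes over 8 kb it was -0.35 and -0.36. The other pair in each group differed in these medians by between -0.03 and 0.07. The share of counts on protein-coding genes was also lowest in these 2 libraries of their groups, at 91.4% and 92.3%, against 94.5% to 95.4% in the other four. What set these libraries apart was not tested. Counts of genes are therefore also given from a fit without both of them, called the 4-library fit because it leaves 4 of the 6. The libraries of all other groups of the study stayed in that fit and entered its estimate of spread. For lists, numbers in brackets give the higher and lower genes in that fit.

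GFP-PKP4, the transgene sequence added to the reference, checked the labels. It stood at 269, 291 and 124 CPM in the 3 Rescue libraries, at 4.93, 2.16 and 1.45 in PKP4-KO and at 0, 0.0583 and 4.27 in WT. All Rescue libraries lay far above all others, and Rescue replicate 3 held less than the other Rescue libraries. Some reads were assigned to the transgene in cells that should lack it, 31 to 70 counts per PKP4-KO library against 1902 to 7038 per Rescue library. Mouse Pkp4, by contrast, was at 8.19, 9.27 and 9.95 CPM in Rescue and at 8.25, 9.99 and 8.71 in PKP4-KO, while WT cells had 76.3, 67.9 and 69.1 (log2 fold change of Rescue against PKP4-KO 0.02, SE 0.16, edgeR adjusted p 0.948). Endogenous Pkp4 reads thus overlapped between Rescue and PKP4-KO and were well below WT in both, and since the deletion removes 1 exon only, reads of the other exons still count. In CPM, which does not correct for gene length, GFP-PKP4 in every Rescue library lay above Pkp4 in every WT library. The keratinocyte markers were abundant in all 6 libraries: the summed level of the 10 markers ran from 37354 to 46778 CPM in Rescue and from 45138 to 58542 in PKP4-KO, and 5 of the 10 were called higher and 1 lower in Rescue. The lists for other cell types lay low. Of the 10 fibroblast markers 7 could be tested, and their summed level was 23.2 to 30.7 CPM in Rescue against 2.39 to 2.61 in PKP4-KO, nearly all of it Fbln1, an extracellular matrix protein, with Dcn and Lum too low to test. The 8 melanocyte, 8 endothelial and 8 immune markers summed to at most 2.68 CPM, 5.67 CPM and 3.72 CPM in any of the 6 libraries. The Merkel cell list reached 50.2 CPM in Rescue and 43.2 CPM in PKP4-KO, mainly Sox2, while Atoh1, its defining factor, was too low to test. The part of other cells in the results was not tested.

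Rescue and PKP4-KO cells differed widely in low calcium. Of 15114 genes tested with edgeR's quasi-likelihood test at an adjusted p of 0.05, 5089 were called, which is 33.7%, with 2748 higher in Rescue (18.2%) and 2341 lower (15.5%). Of the protein-coding genes alone, 4777 of 12562 were called (38%). These shares are the background for every count of genes below. The difference was at least 2-fold, an absolute log2 fold change of at least 1, for 2633 genes (17.4%), of which 1705 were higher and 928 lower in Rescue. In 6283 genes (41.6%) the 3 Rescue libraries did not overlap the 3 PKP4-KO libraries, with Rescue above in 21.8% and below in 19.8% of those tested. The 4-library fit called 4127 of 15571 genes (26.5%), 2215 higher and 1912 lower, and 4013 genes were called in both fits, all with the same direction. The same contrast called 40.8% of genes at 24 h in HCM and 41.5% at 72 h in LCM. At 24 h LCM, Rescue against WT called 24.8% and PKP4-KO against WT 40.2%. Each comparison with WT at 24 h LCM shares libraries with Rescue against PKP4-KO, so its counts are not independent of the others. The median log2 fold change differed by gene length, 0.30 over genes longer than 8 kb and -0.20 over genes of up to 1 kb, or 0.29 and -0.15 in the 4-library fit. The part of gene length in single results was not tested.

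**Figure D1:**
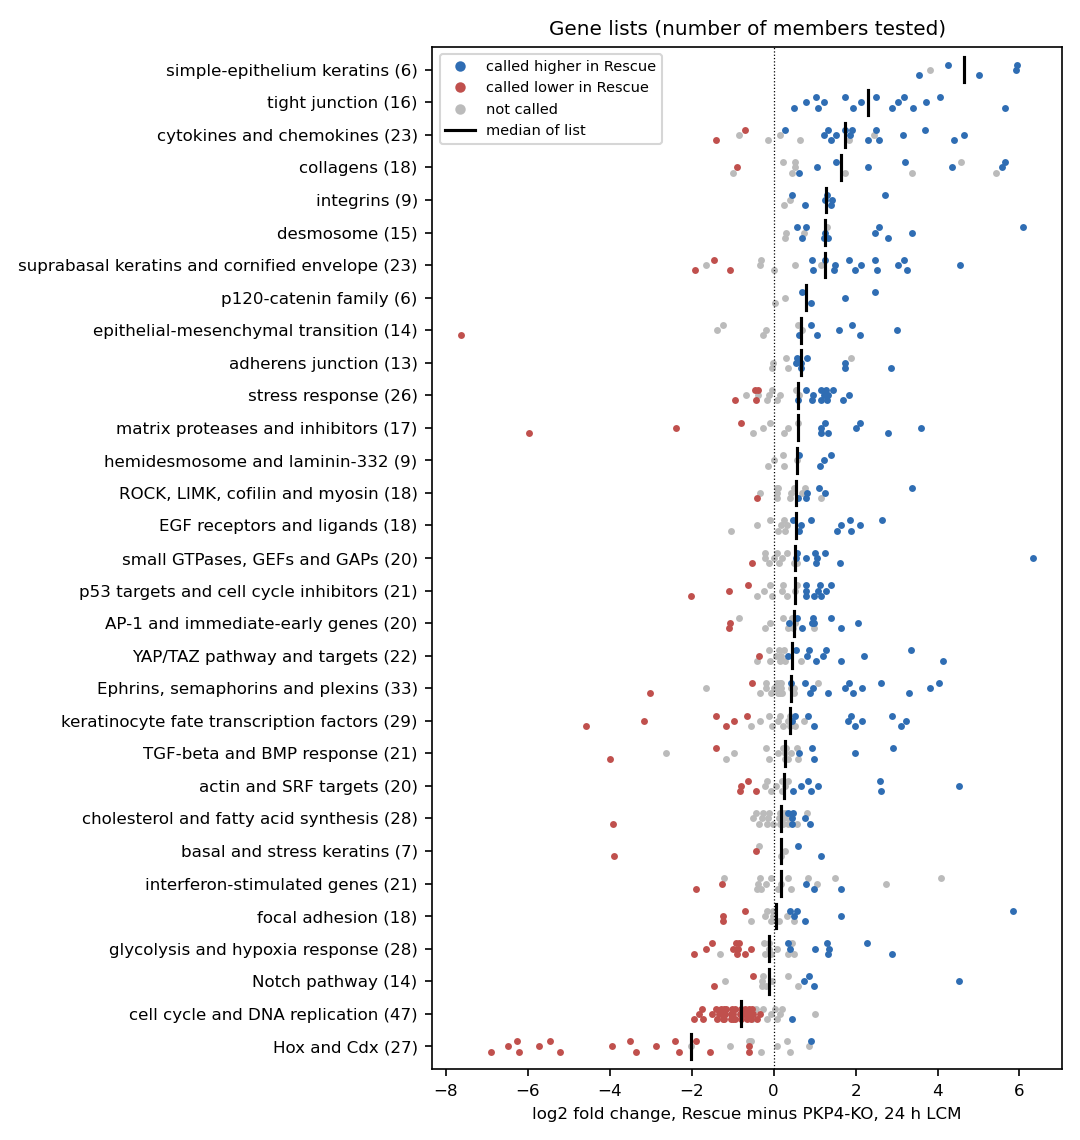
Log2 fold change (Rescue minus PKP4-KO, 24 h LCM) of every tested member of 31 gene lists, 1 point per gene, with lists ordered by their median (black bar) and the number of tested members in brackets. All 16 tight junction genes lie to the right of 0 in blue (called higher), while 36 of 47 cell cycle genes and 17 of 27 Hox and Cdx genes are red (called lower).

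To ask how many genes ran against the PKP4-KO effect in Rescue, PKP4-KO was compared with WT at 72 h LCM. No PKP4-KO library then stood on both sides. This comparison called 6809 genes (45.1%). Of these, 2712 (39.8%) were called in the opposite direction in Rescue against PKP4-KO at 24 h LCM and 490 (7.2%) in the same direction. Among the 3591 genes lower in PKP4-KO than in WT, 41.2% were called higher in Rescue and 4.79% lower. For the 3218 genes higher in PKP4-KO the shares were 38.3% called lower and 9.88% called higher in Rescue. Of the 5089 genes called here, 53.3% thus ran against the PKP4-KO effect at 72 h and 9.63% ran along with it. Genes not called in PKP4-KO at 72 h were called here in 22.7%. PKP4-KO cells, though not the same libraries, enter both comparisons with opposite signs. A gene called in the opposite direction can also pass WT, so these shares do not measure closeness to WT.

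Among the 6 members of the p120-catenin family other than PKP4, which stabilize cadherins at the membrane or link desmosomes to keratins, 4 were called higher and 0 lower (3 and 0 in the 4-library fit). Arvcf, whose product binds classical cadherins, stood at 34.2, 34.9 and 34 CPM in Rescue, at 9.09, 11.1 and 10.4 in PKP4-KO and at 11.4, 13.4 and 16 in WT (log2 fold change 1.75, SE 0.16, adjusted p 5.56e-10). Rescue thus lay above both other genotypes without overlap, and Rescue against WT was also called (log2 fold change 1.33, adjusted p 1.50e-07). Pkp1, the plakophilin of suprabasal desmosomes, was at 1510.3, 1608 and 1488 in Rescue, 912, 984 and 939.6 in PKP4-KO and 1233, 1424 and 1296 CPM in WT (log2 fold change 0.70, SE 0.12, adjusted p 1.91e-05). Ctnnd1, which encodes p120-catenin itself, was called (61.7, 62.9 and 89.2 against 50.8, 32.4 and 31.4 CPM, adjusted p 0.0248) but lost its call in the 4-library fit (adjusted p 0.0505). Pkp3 was not called (log2 fold change 0.27, adjusted p 0.147). Pkp2, the plakophilin of simple epithelia and heart, was low but called higher, at 1.77, 1.66 and 2.16 CPM in Rescue and 0.423, 0.402 and 0.187 in PKP4-KO (log2 fold change 2.47, adjusted p 6.98e-05). At 72 h in LCM the family counted 2 higher and 1 lower of 6, and the lower one was Pkp2 (2.26 ± 0.749 against 5.59 ± 2.12 CPM, SD, n = 3, difference of log2 fold changes between 24 h and 72 h 3.75, edgeR adjusted p 1.67e-04).

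Adherens junction genes were higher in Rescue where they were called at all, 8 of 13 against 0 lower (6 and 0 in the 4-library fit). Cdh1 encodes E-cadherin, the calcium-dependent adhesion receptor of epithelia (GRCm39, chr8:107329941-107396880, plus strand). It was at 108, 112 and 83.9 CPM in Rescue, 41.5, 61.4 and 69.7 in PKP4-KO and 88.7, 97.2 and 106 in WT (log2 fold change 0.82, SE 0.18, adjusted p 6.06e-04). PKP4-KO was the low group and did not overlap the others, and Rescue overlapped WT. Ctnna1, for alpha-catenin, which ties cadherins to actin, followed at 343, 353 and 248 against 156, 223 and 220.3 CPM (log2 fold change 0.66, SE 0.15, adjusted p 7.18e-04), again with Rescue replicate 3 the lowest of its group. Ctnnb1, for beta-catenin, overlapped between the groups (447, 425 and 271 against 256, 466 and 435 CPM, log2 fold change -0.02, adjusted p 0.981), as did Jup, for plakoglobin (log2 fold change 0.30, adjusted p 0.265). The larger differences were in nectins, immunoglobulin-like adhesion molecules that bind without calcium. Nectin4 stood at 51.7, 54.1 and 69.6 CPM in Rescue, 10.9, 6.12 and 7.31 in PKP4-KO and 33.6, 42.4 and 39.9 in WT (log2 fold change 2.86, SE 0.26, adjusted p 5.80e-10). Nectin2 went from 7.05, 6.68 and 6.42 in PKP4-KO to 20, 23.8 and 23.7 CPM in Rescue, with WT at 17.3, 20.4 and 21.4 (log2 fold change 1.74, adjusted p 2.00e-10). Vcl, for the tension-sensing linker vinculin, had overlapping libraries (30.9, 29.8 and 25.9 against 12.5, 18.3 and 27.6 CPM) and its call (adjusted p 0.0163) was lost in the 4-library fit (adjusted p 0.112). In Rescue against WT, edgeR called 0 of the 13 genes, with 1 at an unadjusted p under 0.05. PKP4-KO was below WT in 9 of them. That comparison (PKP4-KO against WT at 24 h LCM) holds the same PKP4-KO libraries and called 40.2% of all genes.

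Tight junction genes were the only one of the 31 lists of which every tested member was called, 16 of 16 higher in Rescue, 15 of them with non-overlapping libraries (16 and 0 in the 4-library fit). Their median log2 fold change was 2.31, against 0 over all tested genes. Claudins form the sealing strands. Cldn4 was at 96.3, 108 and 120.4 CPM in Rescue, 8.39, 8.43 and 7.77 in PKP4-KO and 80.7, 90.9 and 88.1 in WT (log2 fold change 3.72, SE 0.19, adjusted p 9.76e-15). Cldn1, whose loss opens the epidermal barrier, was at 26.4, 27.3 and 24.9 CPM in Rescue, 1.9, 3.36 and 3.28 in PKP4-KO and 63.2, 62.8 and 63.6 in WT (log2 fold change 3.18, SE 0.21, adjusted p 1.30e-12). Cldn4 thus lay above WT in every Rescue library, without a call (adjusted p 0.175), whereas Cldn1 stayed below WT in every Rescue library (log2 fold change against WT -1.27, adjusted p 7.82e-06). Marveld2, for tricellulin of three-cell contacts, was at 5.23, 5.5 and 2.36 against 0.423, 0.201 and 0.187 CPM, and Rescue replicate 3 was the lowest Rescue library (log2 fold change 4.06, SE 0.40, adjusted p 2.90e-09). Tjp1, for the scaffold ZO-1, rose from 10.2, 14.6 and 18.8 in PKP4-KO to 55.5, 50.2 and 39.5 CPM in Rescue (log2 fold change 1.73, adjusted p 8.45e-06). The polarity adaptor Pard6b (log2 fold change 1.94, adjusted p 1.94e-09) and F11r, for the adhesion molecule JAM-A (log2 fold change 0.49, adjusted p 3.13e-04), marked the range of the other members, whose log2 fold changes ran from 0.49 to 5.64. The upper end of that range, Cgnl1 for paracingulin, rests on 2 counts over the 3 PKP4-KO libraries (ratio of summed counts 61.4, counting interval from 16.7 to 512) and was named after its values were seen. In HCM at 24 h 16 of 16 and at 72 h in LCM 15 of 16 were called higher. Against WT 3 members were higher and 3 lower in Rescue. PKP4-KO was below WT in 13 of the 16, in a comparison that holds the same PKP4-KO libraries and called 40.2% of all genes. Cldn3, Cldn6, Cldn7 and Cldn8 were too low to test, and 2 of these 4 had no read in any of the 6 libraries.

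The promoter windows of the 5 tight junction genes named above by the rule for single genes, 250 bases before to 50 after the start of transcription, are shown because these genes moved together. They are RefSeq sequences of GRCm38.p6, the build of the sequence table and not that of the counts, and are printed 5′ to 3′ on the strand of the gene. Capitals mark the E-box CACCTG or its other strand CAGGTG, the letters bound by Snail-type factors, chosen because Snai1 is the named gene with the largest fall. Snai2, for a related factor, was called higher in Rescue, as given below. The part of either factor was not tested. The windows lie at chr5:134946885-134947184 on the minus strand for Cldn4, chr16:26371790-26372089 on the minus strand for Cldn1, chr2:168080754-168081053 on the plus strand for Pard6b, chr13:100616922-100617221 on the minus strand for the first of 2 windows of Marveld2, and chr1:171437311-171437610 on the plus strand for F11r.
Cldn4: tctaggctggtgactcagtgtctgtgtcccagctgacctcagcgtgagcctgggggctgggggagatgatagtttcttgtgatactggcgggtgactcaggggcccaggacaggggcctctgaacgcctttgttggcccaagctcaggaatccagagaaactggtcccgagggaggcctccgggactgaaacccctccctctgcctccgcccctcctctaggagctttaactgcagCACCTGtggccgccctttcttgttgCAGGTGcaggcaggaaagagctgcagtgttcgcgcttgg
Cldn1: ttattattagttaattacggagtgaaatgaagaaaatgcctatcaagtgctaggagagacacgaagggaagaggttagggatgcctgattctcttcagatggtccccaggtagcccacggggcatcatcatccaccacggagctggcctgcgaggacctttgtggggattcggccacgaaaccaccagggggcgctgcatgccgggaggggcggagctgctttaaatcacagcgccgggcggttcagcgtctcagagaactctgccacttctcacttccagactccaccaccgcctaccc
Pard6b: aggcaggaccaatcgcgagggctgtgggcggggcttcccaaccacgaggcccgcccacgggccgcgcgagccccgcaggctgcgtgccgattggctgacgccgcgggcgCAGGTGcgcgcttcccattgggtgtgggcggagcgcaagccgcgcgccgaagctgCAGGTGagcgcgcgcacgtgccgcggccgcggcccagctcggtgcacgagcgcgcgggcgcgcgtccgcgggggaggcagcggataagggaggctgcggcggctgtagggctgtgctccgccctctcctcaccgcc
Marveld2: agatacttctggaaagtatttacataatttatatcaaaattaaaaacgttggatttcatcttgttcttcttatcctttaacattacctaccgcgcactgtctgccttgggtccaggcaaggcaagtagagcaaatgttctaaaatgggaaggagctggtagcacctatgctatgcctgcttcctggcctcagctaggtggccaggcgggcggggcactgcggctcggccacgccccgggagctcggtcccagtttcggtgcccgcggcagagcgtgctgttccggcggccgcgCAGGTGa
F11r: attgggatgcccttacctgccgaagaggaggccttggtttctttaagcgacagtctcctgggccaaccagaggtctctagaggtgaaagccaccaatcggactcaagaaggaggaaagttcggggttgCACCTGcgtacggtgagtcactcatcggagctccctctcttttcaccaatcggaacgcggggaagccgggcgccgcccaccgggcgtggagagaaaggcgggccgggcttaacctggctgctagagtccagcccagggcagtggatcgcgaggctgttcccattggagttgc
The E-box was present in the windows of Cldn4, Pard6b, Marveld2 and F11r and not in that of Cldn1. Of the 16 tested members 13 had a window in the table, and 7 of these 13 (53.8%) held the E-box in their first window, against 6640 of 32851 windows (20.2%) in the whole table. Among first windows of tested genes the share was 17.8%, and 23.7% of those called higher. Among tested genes with a window it differed between lists. It was found in 1 of 9 adherens junction genes, 1 of 2 desmosome genes, 4 of 5 simple-epithelium keratins and 0 of 12 Hox and Cdx genes. Cdh1 had no window in the table, so its promoter was not read. The AP-1 letters TGANTCA were found in 3 of the 13 (23.1%) and in 7.81% of all windows or 7.88% of the first windows of genes called higher. A TEAD match GGAATG or CATTCC occurred in 1 of 13 and in 14.7% of all windows, a CArG box in 1 of 13 and in 1.63%, and the interferon response motif in 0 of 13 and in 3.44%. Both strands were read, a window counted once however many matches it held, and matches of different motifs could overlap. A match is a description of letters and no evidence of binding.

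Desmosomes, the spot junctions that anchor keratin filaments, had 11 of 15 tested genes higher and 0 lower in Rescue (11 and 0 in the 4-library fit). Dsp, for desmoplakin, the plaque protein that binds keratins, had 1863, 1883 and 997 CPM in Rescue and 607, 1079 and 1151 in PKP4-KO and was not called (log2 fold change 0.74, SE 0.31, adjusted p 0.0696). The spread within each group was wide for this long transcript, with Rescue replicate 3 and PKP4-KO replicate 1 lowest in their groups. The cadherins of the desmosome differed more. Dsg2, the desmoglein of simple and basal epithelia, was at 4.32, 3.85 and 3.99 CPM in Rescue and 8.35, 6.71 and 6.4 in WT but had 3 counts in all in PKP4-KO (0, 0 and 0.141 CPM), a ratio of summed counts of 75 with an exact 95% counting interval from 25.4 to 366. Dsg1b was at 13.5, 15.7 and 6.35 against 1.13, 1.71 and 2.2 CPM (log2 fold change 2.80, adjusted p 2.23e-06) and Dsc2 at 3.28, 3.89 and 1.51 against 0.493, 0.351 and 0.0468 CPM (log2 fold change 3.37, adjusted p 6.99e-06). Each of these lay higher in every Rescue than in every PKP4-KO library. In HCM 15 of 15 were called higher. Against WT 2 members were lower in Rescue. Over the 8 lists with 0 genes lower in Rescue by edgeR, 0 of 85 members had an unadjusted p under 0.05 in that direction, and DESeq2 called 0. These lists were picked by that same edgeR result and DESeq2 used the same counts, so neither number adds independent support.

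**Figure D2:**
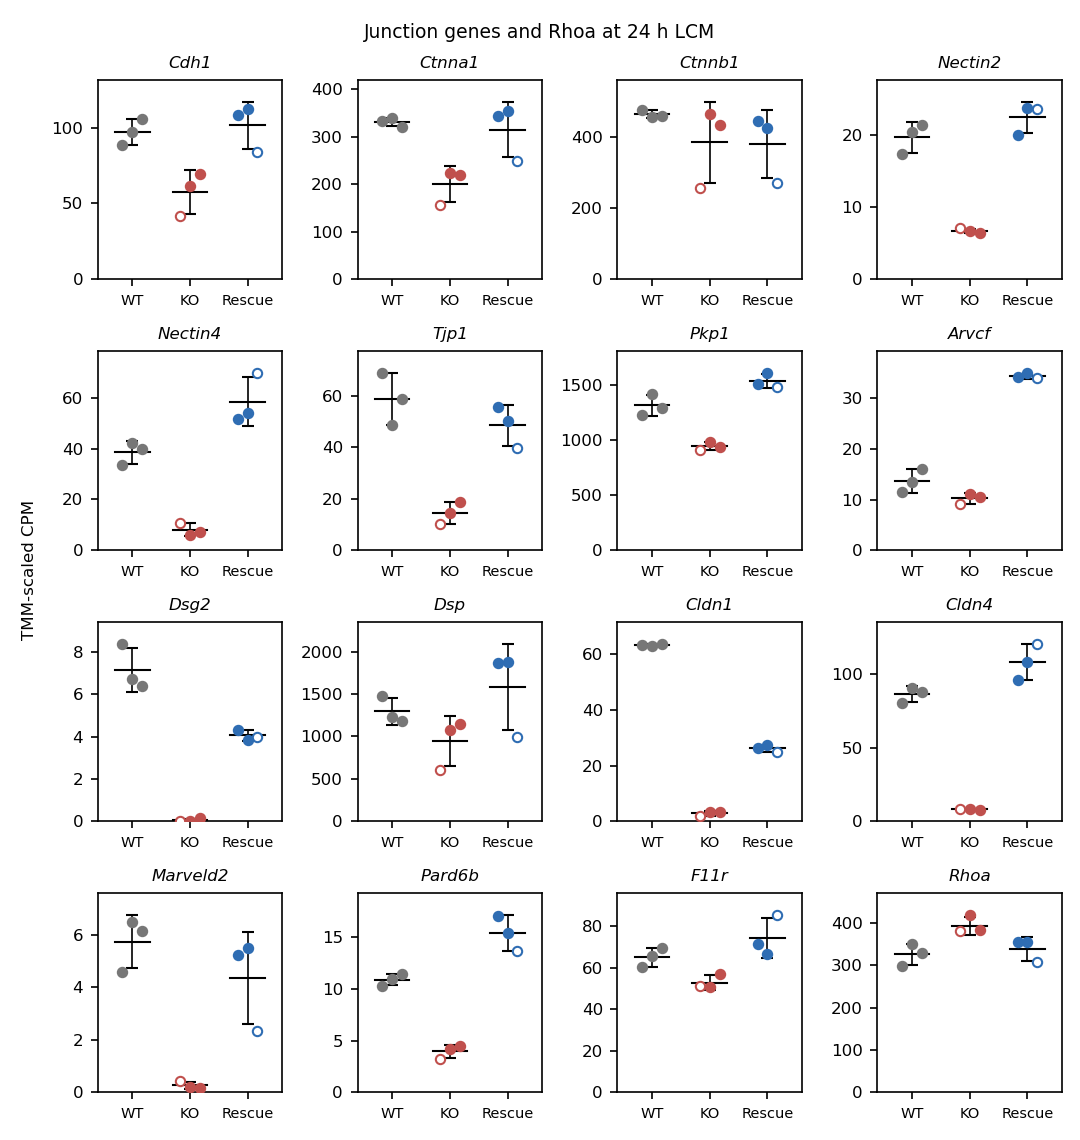
TMM-scaled CPM of 15 junction genes and Rhoa in WT, PKP4-KO (KO) and Rescue cells at 24 h LCM, 3 libraries each, with the mean (line) and SD (bar); open symbols are PKP4-KO replicate 1 and Rescue replicate 3. Cldn4, Nectin2 and Tjp1 are low in PKP4-KO alone, Arvcf is highest in Rescue, and Ctnnb1 overlaps between PKP4-KO and Rescue.

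Small GTPases such as RHOA, RAC1 and CDC42 switch actin organization, with exchange factors (GEFs) that turn them on and GAPs that turn them off. In that list 9 of 20 genes were called higher and 1 lower (6 and 1 in the 4-library fit). The GTPase genes Rhoa, Rac1 and Cdc42 were not called by edgeR. Rhoa stood at 355, 355 and 307 CPM in Rescue and 380.3, 418 and 382 in PKP4-KO (log2 fold change -0.22, SE 0.10, adjusted p 0.114), and Rac1 and Cdc42 had log2 fold changes of -0.10 and 0.01 (adjusted p 0.636 and 0.955). Every Rescue library lay below every PKP4-KO library for Rhoa, and DESeq2 called it lower (log2 fold change -0.22, adjusted p 0.0196). Rhob, for an inducible GTPase of endosomes, was at 57.5, 58.4 and 42.5 in Rescue, 21.4, 28.4 and 28.8 in PKP4-KO and 32.5, 29.5 and 30.4 CPM in WT (log2 fold change 1.01, SE 0.15, adjusted p 3.48e-06). Rhoc had no read in PKP4-KO and stayed near the floor in Rescue (0.364, 0.29 and 1.05 CPM), at least 3.38-fold higher against 3 counts in each PKP4-KO library. Of the regulators the study followed, Arhgap23, a GAP, went from 21.4, 30.3 and 31.1 CPM in PKP4-KO to 58, 66.1 and 49.4 in Rescue with WT at 51.2, 54.1 and 53.7 (log2 fold change 1.06, SE 0.15, adjusted p 1.32e-06). Arhgef2, for the microtubule-bound GEF-H1, was not called (62.9, 65.7 and 48.6 against 46.1, 54.5 and 41.6 CPM, log2 fold change 0.32, adjusted p 0.0813). Also without a call were Ect2, the GEF of dividing cells (log2 fold change 0.21, adjusted p 0.766), Arhgap21 (log2 fold change 0.50, adjusted p 0.291) and Arhgap24 (log2 fold change 0.07, adjusted p 0.893). Racgap1, the partner of ECT2 at the midzone, fell from 144, 188 and 166 to 119, 118 and 108 CPM (log2 fold change -0.53, adjusted p 0.00964, or 0.069 without PKP4-KO replicate 2). Arhgdib, which holds GTPases in the cytosol, was above both other genotypes in Rescue (408, 426 and 676 CPM, against 225, 142 and 122 in PKP4-KO and 129.6, 197 and 178 in WT, adjusted p against PKP4-KO 1.56e-05 and against WT 4.31e-05).

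Downstream of RHOA, ROCK kinases raise myosin activity and act through LIM kinase on cofilin, which severs actin. Here 6 of 18 tested genes were higher and 1 lower in Rescue (5 and 0 in the 4-library fit). The share called, 38.9%, was near the 38% of protein-coding genes. Limk1 stood at 18.5, 18.7 and 23.6 CPM in Rescue, 9.59, 9.84 and 5.95 in PKP4-KO and 34, 37.9 and 35.8 in WT (log2 fold change 1.26, SE 0.20, adjusted p 1.40e-05), so Rescue lay between the other genotypes. Slingshot phosphatases reactivate cofilin, and of their genes Ssh3 was at 33.5, 35.1 and 39.5 against 19.5, 21.9 and 19.7 CPM (adjusted p 5.09e-05) and Ssh1 at 15.8, 16.8 and 17.5 against 8.81, 10.4 and 9.65 CPM (adjusted p 6.09e-04). Cfl1, the main cofilin of these cells, was not called (log2 fold change 0.08, adjusted p 0.821), nor were Rock1 (log2 fold change 1.15, adjusted p 0.1), Rock2 (log2 fold change 0.76, adjusted p 0.164) or Ppp1r12a, for the targeting subunit of myosin phosphatase (log2 fold change 0.68, adjusted p 0.0828). For Rock1 the groups did not overlap, at 8.24, 7.78 and 4.32 against 2.61, 2.76 and 3.79 CPM, and Rock1 was called by edgeR's exact test (adjusted p 0.00731) and with only the compared groups in the fit (adjusted p 0.0276). Myh9, for non-muscle myosin IIA, was called (414, 435 and 307 against 188, 297 and 278 CPM, adjusted p 0.0163) but not in the 4-library fit (adjusted p 0.0507), while Myh14, for myosin IIC, kept its call (28.6, 30.6 and 18.7 against 13.5, 12.9 and 10.1 CPM, adjusted p 0.0018). Mylk, for myosin light chain kinase, and Myl9, for a myosin light chain, were too low to test.

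Actin-binding genes and targets of SRF moved both ways, 8 of 20 higher and 4 lower (7 and 2 in the 4-library fit). Calponin 3, which binds and stabilizes stress fiber actin, had the largest difference: Cnn3 was at 138, 128 and 108 CPM in Rescue, 4.65, 5.32 and 6.14 in PKP4-KO and 195, 219 and 211 in WT (log2 fold change 4.53, SE 0.24, adjusted p 2.65e-14). Its relative Cnn2 was at 8.56, 9.27 and 7.66 against 1.9, 1.51 and 0.89 CPM with WT at 17.3, 19.1 and 18.8 (log2 fold change 2.59, adjusted p 2.03e-09). Both calponins stayed below WT in every Rescue library. Among tropomyosins, which coat actin filaments, Tpm1 was higher (614, 549 and 660.3 against 242, 294 and 329.8 CPM, log2 fold change 1.07, adjusted p 1.82e-06) and Tpm2 lower (161, 169 and 203 against 357, 302 and 289 CPM, log2 fold change -0.83, adjusted p 0.00262). Tagln2, for transgelin-2, fell from 1268, 1173 and 1097 to 633, 657 and 739 CPM (log2 fold change -0.80, adjusted p 5.55e-05). Actb was not called (log2 fold change 0.36, adjusted p 0.713). The transcription factor Srf and its cofactor Mrtfa were lower (adjusted p 0.0282 and 0.0127), both calls being lost in the 4-library fit (adjusted p 0.0799 and 0.0534).

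Integrins bind the matrix, and focal adhesions tie them to actin. Of 9 tested integrins, 7 were higher and 0 lower in Rescue (6 and 0 in the 4-library fit). Itgb5, a vitronectin receptor subunit, was at 50.5, 47.8 and 53.4 CPM in Rescue, 18.4, 21.5 and 21.2 in PKP4-KO and 59.5, 73.6 and 70.9 in WT (log2 fold change 1.31, SE 0.13, adjusted p 2.00e-09), and Itga2, a collagen receptor subunit, at 7.78, 7.78 and 4.12 against 0.493, 0.552 and 1.87 CPM (log2 fold change 2.72, adjusted p 1.43e-04). Itga6, which pairs with the beta4 subunit in hemidesmosomes, had 304, 287 and 168 CPM in Rescue and 55.2, 99 and 132 in PKP4-KO (log2 fold change 1.40, adjusted p 6.78e-04). The groups did not overlap for any of these 3 genes. In focal adhesions 6 of 18 genes were higher and 3 lower (3 and 4 in the 4-library fit). Both talins, which activate integrins, were lower in Rescue, Tln1 at 143, 155 and 128 against 279, 359.7 and 357 CPM (log2 fold change -1.23, SE 0.14, adjusted p 3.49e-08) and Tln2 at 9.15, 10.9 and 7.72 against 20.8, 22.3 and 22.9 CPM (log2 fold change -1.25, adjusted p 1.20e-06). The integrin-linked kinase gene Ilk was lower too (58.1, 59 and 68.8 against 101, 102 and 97.9 CPM, adjusted p 1.43e-04). On the other side, Bcar1, for the stretch-sensing adaptor p130Cas, was higher (41.2, 38.6 and 41.1 against 17.2, 27.3 and 25.9 CPM, adjusted p 6.44e-05), and Fermt2, for kindlin-2, had 1 count in all PKP4-KO libraries together against 1.18, 1.61 and 1.57 CPM in Rescue, a ratio of 80.4 with an interval from 14.1 to 3209.7. Ptk2, for focal adhesion kinase, was not called (log2 fold change 0.32, adjusted p 0.251). For hemidesmosomes and laminin-332, the basal anchor of keratinocytes, 4 of 9 were higher and 0 lower (4 and 0 in the 4-library fit), among them the laminin chain Lama3 (166, 173 and 121 against 39, 64.1 and 93.3 CPM, log2 fold change 1.23, adjusted p 1.17e-05).

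Of 18 tested collagens 8 were higher and 1 lower (8 and 1 in the 4-library fit), with a median log2 fold change of 1.64, or 0.81 with a gene that had no PKP4-KO read set to its bound. The basement membrane pair Col4a1 and Col4a2 stood at 4.14, 5.21 and 5.5 and 8.1, 11.1 and 8.9 CPM in Rescue against 0.211, 0.301 and 0.187 and 0.282, 0.1 and 0.187 in PKP4-KO (log2 fold change 4.36 and 5.64, adjusted p 7.70e-10 and 3.80e-12). The fibroblast marker sum given above was higher in Rescue too, and its part in the collagen values was not tested. WT was higher than Rescue for both genes, at 10.2, 11.5 and 14.5 and 34.6, 38.3 and 37.5 CPM. Col7a1, for anchoring fibrils, was at 45.5, 39.3 and 47.5 against 13.9, 15.3 and 16.9 CPM (log2 fold change 1.52, adjusted p 5.63e-06). Proteases and their inhibitors moved both ways, 8 of 17 higher and 3 lower (7 and 3 in the 4-library fit). Timp3, a matrix-bound inhibitor of metalloproteases, was among the 12 largest falls of the protein-coding genes: 2.55, 3.93 and 4.19 CPM in Rescue against 149.7, 210.3 and 312 in PKP4-KO and 1.64, 0.642 and 1.82 in WT (log2 fold change -5.98, SE 0.42, adjusted p 3.98e-12). Its relative Timp2 moved the other way, 108, 112 and 80.7 CPM in Rescue against 15.7, 23.4 and 30.8 in PKP4-KO, with WT at 217, 259 and 270.1 (adjusted p 2.30e-08). Plaur, the urokinase receptor of migrating keratinocytes, was above both genotypes in Rescue (67.5, 77.3 and 64.1 CPM, 8.04, 10.1 and 12 in PKP4-KO and 15.4, 22.6 and 21.8 in WT, log2 fold change 2.79, adjusted p 1.45e-11). Mmp2, a gelatinase, was lower (log2 fold change -2.39, adjusted p 5.07e-07).

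Keratins differed by type. Simple-epithelium keratins, normally found in single-layered epithelia and embryonic epidermis, were higher in 5 of 6 and lower in 0 (5 and 0 in the 4-library fit). Krt7 was at 132, 135 and 146 CPM in Rescue, 12.5, 9.29 and 13.3 in PKP4-KO and 3.7, 4.14 and 7.29 in WT (log2 fold change 3.56, SE 0.24, adjusted p 2.06e-12), so Rescue passed WT as well (log2 fold change against WT 4.76, adjusted p 1.29e-13). Krt8 was at 5.64, 3.68 and 5.24 CPM in Rescue and had 4 counts in all in PKP4-KO (0.0705, 0.151 and 0 CPM), a ratio of summed counts of 66.1 with a counting interval from 25.6 to 244. Krt23 was at 14.8, 14.6 and 9.03 against 0.493, 0.853 and 0.609 CPM (log2 fold change 4.26, adjusted p 1.46e-09). Krt18, the usual partner of KRT8, was not called (adjusted p 0.0512), with a ratio of 19 and an interval from 3.05 to 784, and was looked up after its values were seen. DESeq2 called it (adjusted p 0.0386). Krt15, a keratin of basal and stem cells, went the other way: 27.4, 27.8 and 48.3 CPM in Rescue, 674, 532 and 328 in PKP4-KO and 6.71, 6.3 and 8.07 in WT (log2 fold change -3.89, SE 0.28, adjusted p 5.68e-12). Krt14, the main basal keratin, was slightly lower in Rescue (17985, 19445 and 20326 against 28356, 26283 and 23805 CPM, adjusted p 0.0216), a call lost in the 4-library fit (adjusted p 0.095). The stress keratins Krt6b (2133, 2382 and 2139 against 1224, 951 and 805 CPM, log2 fold change 1.16, adjusted p 2.01e-05) and Krt16 (3348, 3911 and 3107 against 2734, 2248 and 1874 CPM, log2 fold change 0.60, adjusted p 0.00402) were higher. Highly similar keratin genes can share reads, so values of single keratins carry that uncertainty.

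Suprabasal keratins and cornified envelope genes, which mark differentiation and are usually low before calcium is added, were higher in 14 of 23 and lower in 3 (15 and 3 in the 4-library fit). The envelope crosslinking enzymes Tgm1 and Tgm3 were above both other genotypes. Tgm1 was at 90.9, 102 and 104 CPM in Rescue, 13.7, 9.24 and 8.43 in PKP4-KO and 29.3, 35 and 34.4 in WT (log2 fold change 3.25, SE 0.22, adjusted p 1.99e-12). Tgm3 was at 243, 278 and 186 against 29.2, 28.6 and 20.2 CPM, with WT at 61, 72.8 and 58.9 (log2 fold change 3.18, adjusted p 6.94e-13). Sprr2d, a small proline-rich envelope precursor, was at 129.6, 163 and 186 against 12.7, 5.37 and 2.58 CPM (log2 fold change 4.55, adjusted p 1.01e-07), whereas its paralog Sprr2a1 was lower (107, 103 and 196 against 794, 399 and 351 CPM, log2 fold change -1.93, adjusted p 8.31e-05). The Sprr2 genes are near-identical copies, and reads may be split between them. The other lower members were the early suprabasal keratins. Krt1 was at 2.32, 2.61 and 21.4 CPM in Rescue and 38.6, 19.2 and 13.8 in PKP4-KO (log2 fold change -1.46, adjusted p 0.0191), with the high Rescue value in replicate 3 and the high PKP4-KO value in replicate 1, and a log2 fold change of -2.74 in the 4-library fit. Krt10 showed the same layout (6.96, 7.53 and 28.5 against 41.7, 25.6 and 22 CPM, log2 fold change -1.06, adjusted p 0.0337). The groups overlapped for both keratins, and both calls were lost without Rescue replicate 1 (adjusted p 0.118 and 0.202), without Rescue replicate 2 (0.122 and 0.195) or without PKP4-KO replicate 1 (0.175 and 0.197).

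Transcription factors of keratinocyte fate were higher in 11 of 29 and lower in 6 (10 and 6 in the 4-library fit). Activators of terminal differentiation were among the higher ones. Zfp750, a p63 target that drives late differentiation, was at 54.7, 60.2 and 41.5 CPM in Rescue, 6.42, 6.98 and 7.68 in PKP4-KO and 38, 39.6 and 32.7 in WT (log2 fold change 2.89, SE 0.16, adjusted p 3.57e-14). Grhl3, needed for barrier formation, was at 37.9, 43.1 and 25.6 against 6.2, 10.7 and 7.12 CPM (log2 fold change 2.15, adjusted p 1.97e-09), Grhl1 at 32.6, 36.9 and 22.1 against 7.83, 8.53 and 6.88 CPM (adjusted p 2.02e-08), and Ovol1, a repressor that restrains progenitor growth, at 45.5, 46.4 and 41.1 against 14.5, 11.5 and 11.6 CPM (log2 fold change 1.82, adjusted p 4.35e-10). Of these 4 genes every Rescue library exceeded every PKP4-KO library. Barx2, a homeobox factor, was lower by a wide margin, at 2.96, 3.44 and 8.38 CPM in Rescue against 207, 75 and 64.1 in PKP4-KO and 0.899, 1.11 and 2.24 in WT (log2 fold change -4.57, SE 0.50, adjusted p 2.36e-08). Sox9, a factor of hair follicle cells, was also lower (log2 fold change -0.96, adjusted p 2.47e-04), as was Id1, a BMP-responsive inhibitor of differentiation (60.1, 63.2 and 94.1 against 198, 176 and 206 CPM, log2 fold change -1.42, adjusted p 1.04e-05). Trp63, the master regulator of stratified epithelia, was not called (log2 fold change -0.32, adjusted p 0.407). In the Notch pathway, which starts spinous differentiation, 4 of 14 were higher and 2 lower (3 and 2 in the 4-library fit). Notch3 rose from 0.493, 0.803 and 0.843 in PKP4-KO to 18.5, 19.7 and 12.2 CPM in Rescue (log2 fold change 4.52, SE 0.30, adjusted p 1.37e-12), and Notch1 had 158, 159 and 117 against 51.7, 79.6 and 107 CPM (adjusted p 0.003), while the fringe enzyme gene Lfng, whose product tunes ligand choice, was lower (14.4, 12.3 and 14.2 against 34.1, 36.4 and 42.5 CPM, log2 fold change -1.47, adjusted p 1.38e-08).

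Among the protein-coding genes that met the limits for naming single genes, Snai1 had the largest fall. It encodes Snail, a zinc finger repressor of E-cadherin and claudin genes in epithelial-mesenchymal transition (GRCm39, chr2:167380113-167384734, plus strand). Levels were 0.091, 0.0414 and 0.982 CPM in Rescue, 58.5, 56.8 and 74.8 in PKP4-KO and 0, 0 and 0.312 in WT (log2 fold change -7.63, SE 0.64, adjusted p 3.88e-10). Snai1 reads were thus frequent in PKP4-KO alone and near the floor in Rescue and WT, and the call held in the 4-library fit (adjusted p 2.10e-10). Snai2, for the related factor Slug of basal keratinocytes, moved the other way, 74.8, 72.1 and 54.7 CPM in Rescue against 18.2, 24.8 and 23.7 in PKP4-KO and 53.9, 45.4 and 51.8 in WT (log2 fold change 1.59, SE 0.20, adjusted p 2.42e-07). Epcam, an epithelial adhesion molecule, was at 24.2, 23.8 and 20.8 against 4.02, 4.82 and 6.93 CPM with WT at 24.7, 23.9 and 28.3 (log2 fold change 2.12, adjusted p 2.07e-08). Fn1, for fibronectin, a mesenchymal marker in this list, was nevertheless higher in Rescue too (9.42, 9.6 and 7.92 against 1.27, 1.71 and 4.03 CPM, log2 fold change 1.92, adjusted p 2.33e-05). The splicing factor gene Esrp2, which marks epithelia, was higher (adjusted p 1.04e-06) and Esrp1 was not called (log2 fold change -0.25, adjusted p 0.336). In all, 7 of 14 tested genes of the transition list were higher and 1 lower (6 and 1 in the 4-library fit), and Epcam, an epithelial member, and Fn1, a mesenchymal one, both rose.

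Homeobox genes of the Hox clusters and the Cdx family, which set position along the body axis, had the lowest median of the 31 lists: 17 of 27 tested were lower and 1 higher (1 and 15 in the 4-library fit). The median log2 fold change was -2.01, or -1.90 with genes without any Rescue read at their bound. Cdx2, an intestinal and posterior factor, was at 0.137, 0.0828 and 0.458 CPM in Rescue, 16.3, 15.3 and 15.5 in PKP4-KO and 0, 0.117 and 0.0521 in WT (log2 fold change -6.21, SE 0.66, adjusted p 1.48e-08). Hoxc5 was at 0.455, 0.538 and 0.524 CPM in Rescue, 26.6, 27.7 and 27.5 in PKP4-KO and 0.0529, 0 and 0.104 in WT (log2 fold change -5.74, SE 0.43, adjusted p 1.47e-11). The PKP4-KO libraries agreed closely with each other for both. Hoxd9 had 2 counts in all Rescue libraries and 4.72, 5.02 and 4.4 CPM in PKP4-KO, a ratio of summed counts of 145 with a counting interval from 39.6 to 1199.6. Hoxb9, the most abundant member, was not called (log2 fold change 0.08, adjusted p 0.775). PKP4-KO was above WT in 21 of the 27, in a comparison that holds the same PKP4-KO libraries and called 40.2% of all genes. Rescue was still above WT in 12 and below in 1. In HCM 16 of the 27 were called lower and 1 higher, and at 72 h in LCM 15 lower and 2 higher.

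**Figure D3:**
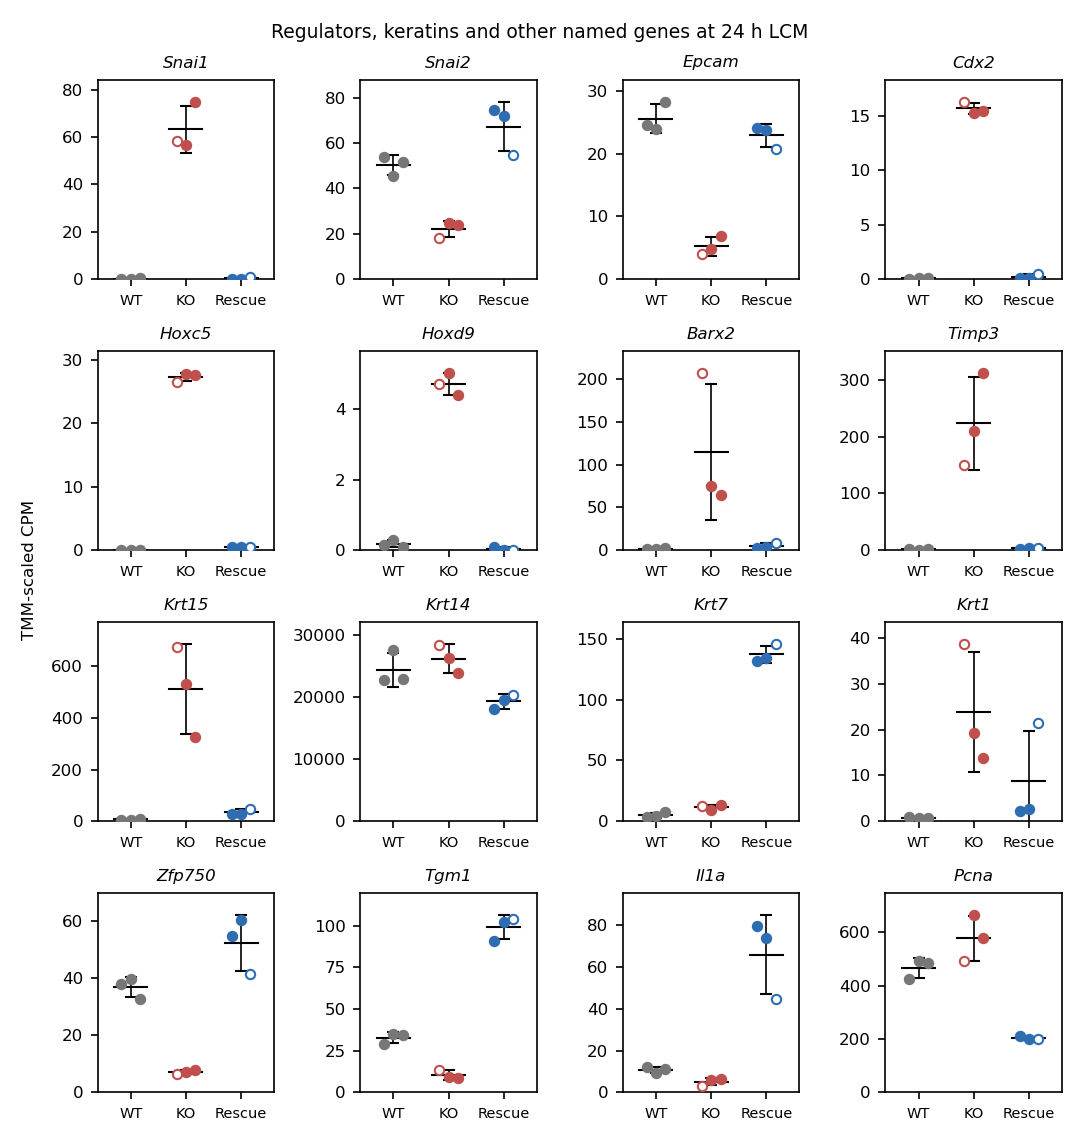
TMM-scaled CPM of 16 named genes in WT, PKP4-KO (KO) and Rescue cells at 24 h LCM, 3 libraries each, with the mean (line) and SD (bar); open symbols are PKP4-KO replicate 1 and Rescue replicate 3. Snai1, Cdx2, Hoxc5, Barx2, Timp3 and Krt15 are high in PKP4-KO alone, Krt7, Tgm1 and Il1a are highest in Rescue, and Krt1 shows the 2 open symbols high in both groups.

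Among signaling pathways, the YAP/TAZ list, which reads out cell tension and contact, had 11 of 22 higher and 1 lower (8 and 1 in the 4-library fit). Its target Ccn2, for the matrix protein CTGF, was at 25, 22.4 and 16.3 CPM in Rescue, 0.282, 1.2 and 1.97 in PKP4-KO and 121, 130.0 and 121 in WT (log2 fold change 4.13, SE 0.42, adjusted p 5.87e-09), so it rose but stayed far below WT. F3, for tissue factor, had 16.5, 16.1 and 12 against 1.34, 1.31 and 1.69 CPM with WT at 16.8, 18 and 21.1 (log2 fold change 3.35, adjusted p 1.38e-12), and the receptor kinase gene Axl 254, 259 and 255 against 97.6, 121 and 156 CPM (adjusted p 2.86e-06). Tead2, a DNA-binding partner of YAP, was above both other genotypes (22.7, 22.1 and 31.6 CPM, 5.29, 5.52 and 5.85 in PKP4-KO, 4.49, 5.13 and 6.35 in WT, adjusted p 4.97e-08). In the list of EGF receptors and their ligands, which drive keratinocyte growth and migration, 10 of 18 genes were higher and 0 lower (9 and 0 in the 4-library fit). Hbegf was at 58.2, 63.5 and 40.2 CPM in Rescue, 6.7, 10.4 and 8.62 in PKP4-KO and 13.5, 14.8 and 16.6 in WT (log2 fold change 2.65, SE 0.21, adjusted p 5.08e-11). Areg, for amphiregulin, was at 68.5, 77.9 and 43.6 against 13.5, 20.7 and 16.9 CPM, both above WT at 3.01, 3.62 and 4.95 (log2 fold change 1.89, adjusted p 2.24e-06), and Tgfa at 68.9, 74.2 and 49.5 against 16.8, 25.9 and 23.7 CPM (log2 fold change 1.54, adjusted p 6.75e-07). The medium itself contained EGF.

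The TGF-beta and BMP list counted 5 of 21 higher and 2 lower (4 and 2 in the 4-library fit). Fst, for follistatin, which traps activin, was at 272, 262 and 155 CPM in Rescue and 29.3, 63.9 and 80.6 in PKP4-KO (log2 fold change 1.99, adjusted p 2.98e-05), and Tgfbr3, for the coreceptor betaglycan, at 10.2, 10.5 and 8.64 against 1.34, 1.56 and 0.984 CPM (log2 fold change 2.92, adjusted p 3.04e-08). AP-1 and immediate-early genes counted 9 of 20 higher and 2 lower (8 and 2 in the 4-library fit). Fosl1, for a Fos-type subunit, was at 78, 93.2 and 77.1 CPM in Rescue, 18.8, 20.2 and 20.5 in PKP4-KO and 16.2, 20.2 and 15.7 in WT (log2 fold change 2.06, SE 0.28, adjusted p 1.22e-06), and Fosl2 and Fos were higher with log2 fold changes of 0.95 and 1.40 (adjusted p 1.75e-06 and 1.60e-04). The 2 lower members were Jun, for a partner of these subunits, at 13.2, 14.2 and 13.2 against 19, 30.4 and 34.7 CPM (log2 fold change -1.05, adjusted p 2.04e-05) and Jund with overlapping libraries (156, 160.3 and 67.8 against 106, 388 and 316 CPM, adjusted p 0.0472), a call that held without PKP4-KO replicate 1 alone of the 6 libraries and had adjusted p values of 0.0533 to 0.256 without another. Myc was called higher with overlapping libraries (adjusted p 0.0331) and lost that call in the 4-library fit (adjusted p 0.135). Ephrin, semaphorin and plexin genes, the guidance cues that also set cell repulsion in epithelia, counted 13 of 33 higher and 2 lower (11 and 3 in the 4-library fit), led by Nrp2, a semaphorin coreceptor (37.1, 36.7 and 27.5 against 5.43, 6.48 and 10.9 CPM, log2 fold change 2.15, adjusted p 6.59e-08).

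Cytokine and chemokine genes were higher in 15 of 23 and lower in 2 (13 and 2 in the 4-library fit), with a median log2 fold change of 1.75. Il1a, the alarm cytokine that keratinocytes store, was at 79.3, 73.6 and 44.5 CPM in Rescue, 3.17, 5.87 and 6.18 in PKP4-KO and 12.2, 9.39 and 11.1 in WT (log2 fold change 3.68, SE 0.26, adjusted p 4.38e-12). Its antagonist Il1rn was higher alongside (40.1, 42.1 and 33.1 against 8.53, 9.04 and 6.04 CPM, log2 fold change 2.29, adjusted p 2.50e-11). Tslp, an epithelial cytokine of allergic inflammation, was at 37.6, 34.6 and 26.7 CPM in Rescue and at most 2.01 CPM in PKP4-KO (log2 fold change 4.41, SE 0.39, adjusted p 4.43e-10), and WT had 0.793, 1.17 and 2.03. Il33 was at 33.1, 29.1 and 20.4 against 3.31, 3.61 and 2.34 CPM with WT at 20.5, 17.7 and 15.6 (log2 fold change 3.16, adjusted p 5.08e-11). Il1a and Tslp were thus above WT in every Rescue library. Against WT, 15 of the 23 genes were higher in Rescue and 1 lower. Ccl2 and Cxcl14, which attract monocytes, were the 2 lower genes (adjusted p 0.0216 and 0.00118), and the Ccl2 call was lost without Rescue replicate 1, Rescue replicate 2 or PKP4-KO replicate 3 (adjusted p 0.0518, 0.133 and 0.0725). Interferon-stimulated genes counted 3 of 21 higher and 2 lower (2 and 2 in the 4-library fit), 23.8%, below the 33.7% over all genes. B2m, for the light chain of MHC class I, was at 28.6, 28.6 and 31.3 CPM in Rescue, 115, 108 and 103 in PKP4-KO and 11.5, 11.4 and 10.6 in WT (log2 fold change -1.88, SE 0.24, adjusted p 4.23e-07).

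Cell cycle and DNA replication genes were lower in Rescue, 36 of 47 against 1 higher (1 and 35 in the 4-library fit), with a median log2 fold change of -0.81. Pcna, the sliding clamp of replication, was at 209.8, 201 and 199.5 CPM in Rescue, 494, 663 and 577 in PKP4-KO and 425, 492 and 486 in WT (log2 fold change -1.51, SE 0.13, adjusted p 4.15e-10). Rescue was below both other genotypes, and Rescue against WT was called as well (log2 fold change -1.20, adjusted p 6.43e-08). Mybl2, a factor of late S phase genes, was at 49.3, 52.4 and 67.8 against 225, 216 and 212 CPM (log2 fold change -1.95, SE 0.12, adjusted p 4.38e-13), and the helicase subunits Mcm5 and Mcm7 had log2 fold changes of -1.32 and -1.16 (adjusted p 1.94e-09 and 1.50e-09). Ccnd2, for cyclin D2, was the 1 member called higher (388, 369.8 and 359 against 289, 247 and 278 CPM, adjusted p 0.0114, or 0.063 without PKP4-KO replicate 2). Mki67, the usual proliferation marker, was not called (log2 fold change 0.03, adjusted p 0.974) and was looked up after its values were seen. PKP4-KO was above WT in 20 of the 47 and below in 3, in a comparison that holds the same PKP4-KO libraries and called 40.2% of all genes. Rescue was below WT in 27. In HCM 38 members were lower, and the effect differed between LCM and HCM for 0 of the 47 by the test of the difference. At 72 h in LCM 19 were lower and 5 higher, and for 17 of the 47 the effect differed between 24 h and 72 h, where 5.25% of all genes did.

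**Figure D4:**
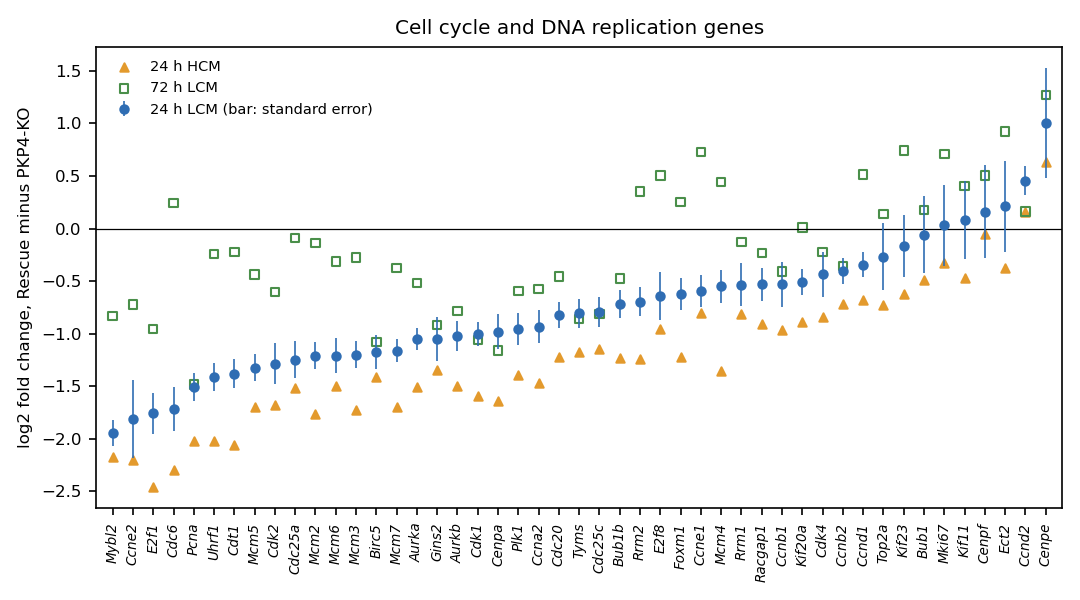
Log2 fold change of Rescue against PKP4-KO for 47 cell cycle and DNA replication genes at 24 h LCM (circles, bar: standard error), 24 h HCM (triangles) and 72 h LCM (squares), genes ordered by the 24 h LCM value. Most circles lie below 0, the triangles lie below the circles for each of the 47 genes, and most squares lie above them. The difference between LCM and HCM was called for 0 of the 47.

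Of 21 p53 targets and cell cycle inhibitors, 9 were higher and 3 lower (6 and 3 in the 4-library fit). The stress-induced Sesn2 was at 45.2, 47.2 and 46.9 CPM in Rescue and 21.4, 19.6 and 21.5 in PKP4-KO (log2 fold change 1.16, SE 0.19, adjusted p 2.23e-05), and Mdm2, for the ubiquitin ligase of p53, at 68.9, 61.2 and 40.5 against 18.1, 30.4 and 29.3 CPM (adjusted p 2.52e-04). Cdkn1c, for the inhibitor p57, was higher (10.8, 11.8 and 6.09 against 2.61, 3.71 and 4.45 CPM, log2 fold change 1.41, adjusted p 3.32e-04), and Sesn1 was lower (log2 fold change -1.09, adjusted p 0.00582). Glycolysis and hypoxia genes moved both ways, 8 of 28 higher and 10 lower (7 and 9 in the 4-library fit). The glycolytic enzymes in the middle and end of the pathway were among the lower ones, Pkm at 2546, 2656 and 2832 against 4029, 4002 and 3661 CPM (log2 fold change -0.54, adjusted p 5.73e-04), Ldha at 1464, 1541 and 1877 against 2975, 2581 and 2386 CPM (log2 fold change -0.70, adjusted p 6.67e-05) and Pfkl at 89.7, 99.7 and 108 against 204, 195 and 159.7 CPM (adjusted p 1.27e-06). The first enzyme, hexokinase, was higher through Hk2 (135, 141 and 100.2 against 45.8, 50.2 and 52.1 CPM, log2 fold change 1.35, SE 0.14, adjusted p 5.35e-09), together with Egln3, an oxygen sensor (log2 fold change 2.28, adjusted p 3.72e-10). At 72 h in LCM 22 of the 28 were lower and 3 higher. In cholesterol and fatty acid synthesis 6 of 28 were higher and 1 lower (3 and 1 in the 4-library fit), a share of 25% against 33.7% over all genes, and the lower gene was the desaturase Scd1 (1.73, 2.81 and 2.81 against 28.3, 36.5 and 45.6 CPM, log2 fold change -3.91, adjusted p 7.76e-06).

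Stress response genes were higher in 13 of 26 and lower in 4 (13 and 1 in the 4-library fit). Higher members included Xbp1, a factor of the unfolded protein response (82.4, 80.8 and 60.2 against 24.4, 28.8 and 28 CPM, log2 fold change 1.46, SE 0.15, adjusted p 5.59e-09) and Chac1, a glutathione-degrading enzyme (94, 98.8 and 102 against 28.4, 30.4 and 32.1 CPM, with WT at 17.6, 19 and 20.7, log2 fold change 1.70, adjusted p 3.61e-08). Nqo1, for a quinone reductase, was at 102, 100.4 and 114 against 47.7, 41.7 and 38.2 CPM (log2 fold change 1.31, adjusted p 6.57e-06) and the cystine carrier gene Slc7a11 was at 42, 44.1 and 21.8 against 8.11, 10.5 and 11.6 CPM (log2 fold change 1.83, adjusted p 5.11e-06). Asns and Psat1, enzymes of amino acid synthesis, were lower, and both calls were lost in the 4-library fit (adjusted p 0.172 and 0.151). Some abundant transcripts were higher as well. Gsto1, a glutathione transferase gene, was at 5070.3, 5273 and 5617 CPM in Rescue and 2761, 2719.8 and 2589.9 in PKP4-KO (log2 fold change 0.98, adjusted p 1.72e-06), Gsta4 at 1577, 1695 and 1763 against 972, 684 and 616 CPM (adjusted p 4.08e-05), and the ferritin heavy chain gene Fth1 at 2427, 2688 and 2400.2 against 1544, 1543 and 1417 CPM (log2 fold change 0.74, adjusted p 8.56e-05). These 3 genes were among the 6 protein-coding genes with the largest gain in CPM. Among the 6 with the largest loss were Ptma, for the nuclear protein prothymosin alpha (1891, 1856 and 2468 against 4322, 3683 and 3523 CPM, adjusted p 1.10e-05), and Anxa2, for a membrane-actin linker (2825, 2911 and 3389.9 against 4685, 4171 and 4031 CPM, adjusted p 0.00388).

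Outside the lists, the genes at either end of the fold changes were named by a rule that required a call and groups without overlap. Parvb, for beta-parvin, which joins integrin-linked kinase to actin, was at 5.73, 5.96 and 8.31 CPM in Rescue and had 1 count in all PKP4-KO libraries, a ratio of summed counts of 359 with a counting interval from 64 to 14196, and WT was near the floor at 0.211, 0.0583 and 0.521 CPM. Shroom1, for an actin-binding protein of the Shroom family, was at 6.24, 7.53 and 5.63 CPM in Rescue, 0.0705, 0 and 0.0937 in PKP4-KO and 4.81, 6.3 and 4.27 in WT, a ratio of 122 with an interval from 41.4 to 594. Wfdc2, for a secreted protein with a whey acidic protein fold, was at 24.8, 25.5 and 53.6 CPM in Rescue, 0.0705, 0.201 and 0.328 in PKP4-KO and 3.6, 5.48 and 3.23 in WT (log2 fold change 7.30, SE 0.56, adjusted p 2.79e-11). Parvb and Wfdc2 thus exceeded both other genotypes, while Shroom1 overlapped WT. Vcan, for the proteoglycan versican, was at 15.4, 16 and 11.2 CPM in Rescue and 14.5, 12 and 10.7 in WT, with PKP4-KO at 0, 0.201 and 0.187 (log2 fold change 6.58, adjusted p 2.26e-10), and Flot2, for flotillin-2 of membrane rafts, was at 26.1, 27.1 and 33.3 against 0.423, 0.653 and 0.515 CPM with WT at 38, 47.8 and 42.9 (log2 fold change 5.73, adjusted p 2.75e-13). In the other direction, the forkhead factor gene Foxd1 was at 0.182, 0.124 and 0 CPM in Rescue and 7.12, 15.6 and 11.8 in PKP4-KO (log2 fold change -6.60, adjusted p 9.78e-10). Aldh3a1, an aldehyde dehydrogenase of surface epithelia, was at 0.865, 1.53 and 1.9 CPM in Rescue, 73.4, 57.4 and 45.1 in PKP4-KO and 6.34, 9.8 and 6.2 in WT (log2 fold change -5.37, SE 0.30, adjusted p 3.67e-14), so Rescue fell below WT as well (log2 fold change against WT -2.39, adjusted p 1.70e-07). The carboxylesterase gene Ces1g was at 0.319, 0.207 and 0.785 against 30.5, 23.6 and 27.1 CPM (log2 fold change -6.02, adjusted p 6.64e-11).

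Whether the effect of Rescue was particular to low calcium at 24 h was tested as a difference of differences. Between LCM and HCM at 24 h, 213 of 15114 genes (1.41%) were called, 63 with a more positive and 150 with a more negative effect in LCM. Krt4, a keratin of mucosal epithelia, was 9.47 ± 1.78 CPM (SD, n = 3) in Rescue and 1.71 ± 0.796 in PKP4-KO in LCM, against 112 ± 38.8 and 1.43 ± 0.507 in HCM (difference of log2 fold changes -3.74, SE 0.41, adjusted p 5.29e-06). Nedd9, a focal adhesion scaffold, was 9.18 ± 1.23 and 29.3 ± 6.56 CPM in LCM against 2.35 ± 0.285 and 29.6 ± 4.4 in HCM (difference 1.98, adjusted p 8.91e-04). Krt4 thus differed more between the genotypes in HCM, and Nedd9 lay below PKP4-KO in Rescue in both media, by less in LCM. Between 24 h and 72 h in LCM, 794 genes (5.25%) were called, 400 more positive and 394 more negative at 24 h. Krt1 was 8.78 ± 10.9 CPM in Rescue and 23.9 ± 13 in PKP4-KO at 24 h, against 3.46 ± 0.471 and 432 ± 45.1 at 72 h (difference 5.49, SE 0.71, adjusted p 1.56e-05), and Krt10 differed in the same direction (difference 4.95, adjusted p 2.46e-06). The fall of both keratins in Rescue was thus larger at 72 h. All 4 groups of a difference entered the same model, and the 24 h LCM libraries stand in both differences.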

How the data were processed

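RNA was measured by poly(A) selected, strand-specific, paired-end sequencing of 36 libraries in 12 groups of 3. Per the labels and the study's methods, the authors aligned reads with HISAT2 2.1.0 to mm39, to which they had added the sequence of GFP-PKP4, handled alignments with SAMtools 1.10 and counted reads per gene with featureCounts 2.0.0 on the Ensembl GRCm39 annotation. The deposited values are raw counts for 55358 genes, not normalized. The strand setting of the counting is not given in the sources used here, so overlapping and antisense genes cannot be told apart.

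Groups came from the labels. With edgeR 4.0.16 in R 4.3.3, filterByExpr over the 12 groups kept 15114 genes, library sizes were scaled by TMM, and 1 quasi-likelihood model with 12 group means gave each contrast, with Benjamini-Hochberg adjustment over all tested genes and a call at an adjusted p of 0.05. With 3 libraries against 3, an exact permutation test of a single gene cannot go below 0.1. DESeq2 1.42.0, library sizes without TMM, other filters, other samples in the fit, edgeR's exact test and leaving out each library were tried as alternatives. Leaving out both libraries that stood apart, and the share of protein-coding counts as a covariate, were added after seeing the data. In simulated data with known changes for this comparison, 66 of 100 genes changed by a log2 of 1 and 92 of 100 changed by 2 were called, with 7 false calls among 14665 genes. Only these genes were changed, each gene was drawn independently, and no library was shifted as Rescue replicate 3 and PKP4-KO replicate 1 were. These numbers therefore do not give the power or the false calls in the real data.

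The gene lists and the genes to be compared were chosen with earlier results of these data known. Single genes were named by rule: Pkp4 and GFP-PKP4, the 12 top protein-coding genes by log2 fold change on either side (called, groups not overlapping, mean of at least 5 CPM in the higher group), the 6 with the greatest gain and the 6 with the greatest loss in CPM, up to 4 called members of a list in each direction by adjusted p with its most abundant member, the genes of proteins the study followed, the 5 largest differences of effects in each direction and marker genes. Genes named outside this rule are said to be. A fold against a group with no read is a lower bound computed with 3 counts in each of its libraries, and where each library of a group held at most 3 counts, the ratio of summed counts with its exact 95% interval is given. Promoter windows are RefSeq sequences of GRCm38.p6, matched by symbol. Gene positions are those of GRCm39, and 98.9% of the gene IDs matched the name table. Whether equal replicate numbers pair libraries was checked by correlating deviations from the group means: r was -0.59, 0.46 and -0.59 for equal numbers, so no block was used.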

Additional observations from a re-analysis of the deposited data

Results flagged for a closer look

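The effect of Rescue against PKP4-KO was compared between media and between times by a test of the difference itself, in edgeR with adjustment over 15114 genes, and the 24 h LCM libraries stand in both comparisons. Between LCM and HCM at 24 h 213 genes differed (adjusted p at most 0.05), and between 24 h and 72 h in LCM 794 genes. The numbers below are differences of log2 fold changes. The genes listed are the 5 largest differences in each direction within limits. These were a called difference, a protein-coding gene and a mean of at least 5 CPM over the 4 groups.

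Within these limits, the most negative values for LCM minus HCM were those of Krt4 with -3.74 and Crct1, a cornification gene of the epidermal differentiation complex, with -3.22. Next came the claudin gene Cldn23 with -3.04 and the late cornified envelope genes Lce3e and Lce3c with -3.02 and -3.02. Lce3c stood at 36 ± 6.73 CPM (SD, n = 3) in Rescue and 31.4 ± 12.8 in PKP4-KO in LCM, without a call there, and at 145 ± 26.4 against 15.7 ± 9.02 in HCM. The most positive values were those of Nedd9 with 1.98, the immediate-early factor gene Egr1 with 1.92, the serpin gene Serpina3i with 1.81, Gli3, a Hedgehog pathway factor, with 1.70, and Nat8l, an N-acetyltransferase gene, with 1.70. Nat8l was called higher in Rescue in LCM (38 ± 4.9 against 12.1 ± 1.1 CPM) and stood at 12.8 ± 3.5 against 13.1 ± 1.28 CPM in HCM. The differences of Serpina3i and Gli3 lost their calls without both libraries that stood apart (adjusted p 0.0642 and 0.157), and that of Cldn23 without PKP4-KO replicate 3 (adjusted p 0.563).

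For 24 h minus 72 h in LCM, the most positive values were those of Krt1 with 5.49, Selenbp1, a selenium-binding protein gene, with 5.23, Krt10 with 4.95, the hair and nail type keratin gene Krt84 with 4.01 and 2610528A11Rik with 3.91. Selenbp1 was 2.78 ± 1.04 CPM in Rescue and 2.13 ± 0.677 in PKP4-KO at 24 h, against 9.76 ± 1.2 and 279 ± 48.8 at 72 h, so the groups were apart at the later time. The most negative values were those of Klra4 with -2.98, the metalloprotease gene Adam12 with -2.71, the prolactin family gene Prl2c3 with -2.69, Psca, for a cell surface antigen, with -2.53, and the imprinted gene Mest with -2.41. Adam12 was 20.2 ± 0.948 against 3.87 ± 1.72 CPM at 24 h and 9.93 ± 2.1 against 0.282 ± 0.0592 at 72 h. Klra4 and Prl2c3 have near-identical relatives with which they may share reads, and the difference of Prl2c3 lost its call without PKP4-KO replicate 1 (adjusted p 0.0762). At 24 h Krt84 was at 0.594 ± 0.166 CPM in Rescue and 0.989 ± 0.646 in PKP4-KO, and at 72 h at 1.43 ± 0.318 against 37.4 ± 6.91.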

How the results depend on the processing

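The number of genes called between Rescue and PKP4-KO, 5089, ran from 3757 (edgeR exact test) to 6531 (share of protein-coding counts as a covariate) over the changes of tool, filter, scaling, samples and covariate, and from 4066 to 4970 when 1 library was left out. Requiring an absolute log2 fold change of at least 1 left 2633. Library sizes without TMM gave 4138 calls, of which 61.5% were higher, against 54.0% with TMM, and moved the median log2 fold change of all genes by 0.10. With only the compared groups in the fit 3826 genes were called, and with the replicate number as a block 4973. Equal numbers do not pair these libraries, and not every library correlated best with its own number. The block took the calls of Jund and Krt10 (adjusted p 0.0561 and 0.0542) and of no other gene named for this comparison.

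For the 213 genes whose effect differed between LCM and HCM, the number was 409 with DESeq2, 108 without TMM, 132 with every gene of at least 1 read, 56 with only the compared groups in the fit, 81 without both libraries that stood apart, 568 with the covariate and 68 at an adjusted p of 0.01, and 121 to 184 without 1 library, the lowest without Rescue replicate 3. For the 794 genes that differed between 24 h and 72 h it was 415 with every gene of at least 1 read, 229 with only the compared groups, 1623 with the covariate, 348 at an adjusted p of 0.01, 466 at an absolute log2 difference of at least 1, and 493 to 924 without 1 library, the lowest without PKP4-KO replicate 3. The cause was not tested. The share of genes called in the opposite direction to PKP4-KO against WT at 72 h LCM ran from 31.2% to 48.0% around 39.8%.

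Of the 182 single genes tried, 135 kept their direction and their side of the threshold under every alternative run. Of 1054 counts of list members under these alternatives, 901 stayed within 1.5 times. Single genes that turned their direction had no call as reported. Without 1 library the log2 fold change ran from -0.041 to 0.11 for Pkp4, -0.068 to 0.94 for Actb, -0.18 to 0.25 for Arhgap24, -0.023 to 0.045 for Cdc42, -0.11 to 0.24 for Cfl1, -0.24 to 0.18 for Ctnnb1, -0.11 to 0.55 for Ect2, -0.011 to 0.13 for Hoxb9, -0.14 to 0.34 for Mki67, -0.23 to 0.0068 for Rac1, -0.17 to 0.41 for Sox2 and -1.28 to 0.54 for 2610528A11Rik. Without both libraries that stood apart, Pkp4 had -0.10 and Arhgap24 -0.11. Ctnnb1 had 0.069 without TMM, 0.0034 both with only the compared groups and in the exact test, and 0.061 with the covariate. Calls were also lost without 1 library for Asns, Ctnnd1, Krt14, Mrtfa, Myc, Myh9, Psat1, Srf and Vcl, all with adjusted p of at least 0.05 in the 4-library fit too. Without Rescue replicate 3, Arhgef2, Dsp and Ppp1r12a gained a call (adjusted p 0.0226, 0.0216 and 0.0332), as did Arhgef2 without PKP4-KO replicate 2 (0.0392) or with at least 10 counts (0.046), Dsp in DESeq2 (0.0433), Jup without TMM (0.0401) and Krt18 without TMM (0.0456) or without PKP4-KO replicate 1 (0.0469). With the covariate Arhgap21, Arhgef2, Dsp, Krt18, Pkp3, Ppp1r12a, Ptk2, Rock1 and Rock2 gained one. Calls ended, among others, in the exact test for Krt1, Krt10, Krt16, Anxa2, Pkm, Ldha, F11r, Ccnd2, Jund and Racgap1 (adjusted p 0.0502 to 0.275), with only the compared groups for Krt1, Krt10, Krt16, Anxa2, Ccl2 and Jund (0.0523 to 0.303), without TMM for Sesn1, Jund and Racgap1 (0.0668 to 0.214) and with every gene of at least 1 read for Ccnd2 (0.0617). Library depth limits the lowest genes: 3 counts are 0.124 to 0.211 CPM, and levels below that are not told from 0. Only 1 Rescue line was sequenced, and no vector control was analysed here.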

Other observations

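Calls were spread unevenly over chromosomes. Chromosome 2 had 44.6% of its 1180 tested genes called, 248 higher and 278 lower in Rescue. On the other autosomes and the X chromosome the share ran from 26.3% on chromosome 13 to 38.5% on chromosome 4. The median log2 fold change ran from -0.18 on chromosome 4 to 0.24 on chromosome 19, where 144 genes were higher and 49 lower. These shares are descriptions with no test, chosen after the values were seen.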
